A study of Homo sapiens with 30 samples.

Results

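Sugar breakdown and the response to low oxygen were followed through 33 human genes: 17 enzymes of glycolysis, 4 genes for flux control and lactate export, and 12 hypoxia targets outside sugar metabolism. They were taken by symbol from a list of names written with earlier results of these data known, and all 33 were found among the 24462 gene symbols counted. Expression was measured by QuantSeq, which sequences a tag from the 3′ end of each transcript, in 30 libraries that form 10 groups of 3. Caco2 gave 4 of the groups: cells with a scramble hairpin under vehicle, scramble cells in differentiation medium, and cells with a SETDB1 hairpin in a KRT20-negative and a KRT20-positive fraction. Differentiation medium carried troglitazone (10 uM), a PPARG ligand, and 1α,25-dihydroxyvitamin D3 (25 nM), the ligand of the vitamin D receptor, from day 3 after transduction. HCT116 and SW480 each gave 3 groups: KRT-negative and KRT-positive fractions of SETDB1-hairpin cells, and unsorted cells. All are established colorectal cancer lines, grown in DMEM with serum, with retroviral transduction and puromycin selection. SETDB1 is a histone methyltransferase of silent chromatin, and KRT20 is a keratin of differentiated gut epithelium. The labels leave out the medium of the hairpin cells, the hairpin of the unsorted cells, and whether transduced cells were a pool or clones. Hairpin, sorting and any difference in medium therefore cannot be told apart in a comparison of a fraction with vehicle or unsorted cells. Separate cultures are not stated for the 3 libraries of a group, so p-values measure the spread between these libraries, which may be technical.

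Glycolysis turns glucose into pyruvate in the cytosol, and lactate dehydrogenase then reduces pyruvate to lactate, which leaves the cell through transporters such as SLC16A3. When oxygen is low, the HIF alpha subunits HIF1A and EPAS1 escape degradation, pair with ARNT, and bind short CGTG-containing elements near their targets. Those targets include most glycolytic enzymes and also genes of pH control, blood vessel growth, mitophagy and collagen hydroxylation. Tumour cells of the colon often keep glycolysis high even where oxygen is present.

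The core letters of a hypoxia response element, ACGTG and GCGTG, were searched on both strands in RefSeq promoter windows of 300 bases on GRCh38.p14, from 250 bases before to 50 bases after the gene start, and ACGTG matches of the 2 strands overlap where the letters read CACGTG. A window was found for 30 of the 33 genes, while BNIP3L, NDRG1 and VEGFA had none. Where a member had several windows, only the first listed was searched, whereas the share over all promoters counts every window. At least 1 core was in the windows of 12 of 17 enzymes (70.6%), 2 of 4 flux genes and 7 of 9 other hypoxia targets (77.8%), against 48.4% of all 35114 promoters of this length. ACGTG alone was in 21.4% of all promoters and GCGTG in 36.5%. The 4 windows printed here belong to 2 enzymes that were called lower and 2 hypoxia targets that were called higher in the SETDB1-hairpin fractions of Caco2, with every core in capitals.
LDHA, chr11:18394313-18394612, plus strand: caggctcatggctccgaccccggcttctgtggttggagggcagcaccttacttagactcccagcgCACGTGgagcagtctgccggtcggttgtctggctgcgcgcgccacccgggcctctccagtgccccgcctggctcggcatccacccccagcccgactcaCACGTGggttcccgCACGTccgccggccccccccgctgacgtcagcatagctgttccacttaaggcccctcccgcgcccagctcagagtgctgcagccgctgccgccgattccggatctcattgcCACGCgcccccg
ENO1, chr1:8878637-8878936, minus strand: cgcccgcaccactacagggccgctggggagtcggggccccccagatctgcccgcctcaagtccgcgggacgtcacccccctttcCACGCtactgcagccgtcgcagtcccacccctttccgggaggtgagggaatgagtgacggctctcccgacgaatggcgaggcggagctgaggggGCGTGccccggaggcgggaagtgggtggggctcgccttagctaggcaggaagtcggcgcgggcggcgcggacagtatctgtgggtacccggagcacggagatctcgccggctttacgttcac
P4HA1, chr10:73096817-73097116, minus strand: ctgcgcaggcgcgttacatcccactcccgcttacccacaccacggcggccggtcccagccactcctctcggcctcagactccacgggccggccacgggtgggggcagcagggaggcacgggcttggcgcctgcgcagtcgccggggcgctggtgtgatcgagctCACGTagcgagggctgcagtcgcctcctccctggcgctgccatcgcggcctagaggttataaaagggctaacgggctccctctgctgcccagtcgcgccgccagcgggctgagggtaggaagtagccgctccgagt
CA12, chr15:63381797-63382096, minus strand: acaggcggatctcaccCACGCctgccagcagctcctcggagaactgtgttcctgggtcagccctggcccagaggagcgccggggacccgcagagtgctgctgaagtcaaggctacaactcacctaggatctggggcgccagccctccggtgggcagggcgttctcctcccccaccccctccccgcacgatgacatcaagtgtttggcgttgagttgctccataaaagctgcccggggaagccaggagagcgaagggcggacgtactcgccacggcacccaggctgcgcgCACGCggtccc
LDHA held ACGTG on both strands at each of 2 places, starting 185 and 87 bases before the gene start, a further ACGTG on the minus strand 73 bases before it and a GCGTG 39 bases after it. ENO1 held GCGTG 166 and 72 bases before its start, P4HA1 held ACGTG 86 bases before, and CA12 held GCGTG 234 bases before and 40 bases after. These 4 windows were picked for printing, and each held a core, as did 48.4% of all promoters. P4HA1 held ACGTG alone, ENO1 and CA12 held GCGTG alone, and LDHA held both. Whether cores go with the direction of change was not tested. Of the other enzymes called lower in both Caco2 fractions, GPI, ALDOA, PKM and LDHB held a core and PFKP and PGAM1 held none. Of the other targets called higher in both, BNIP3 and KDM3A held a core, P4HA2 held none and NDRG1 had no window. Core letters are a description of the sequence and not evidence of binding.

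Libraries held 5349737 to 10221854 counts. Replicates lay close together in Caco2, where a chi-square per degree of freedom between libraries of a group was 2.208 to 16.26, and far apart in HCT116 (37.62 to 89.48) and SW480 (41.16 to 138.3). Levels are CPM, that is, counts scaled to a common library size with TMM factors, and a gene was called at 5% FDR over all genes tested in that line. SETDB1 averaged 30.7 CPM (SD 1.71, n = 3) under vehicle and 21.4 (2.17) and 23.0 (3.17) in the KRT20-negative and KRT20-positive fractions of Caco2, and KRT20 1.01 (0.211), 1.3 (0.399) and 32.9 (6.2). In SW480, KRT-negative replicate 1 held 36.1 CPM of SETDB1, above the unsorted range of 15 to 35.9, which goes against its label. HCT116 unsorted replicate 3 held 16.8 CPM, below KRT-positive replicates 2 and 3 at 19.9 and 31.3 CPM. KRT20 was 5.84 CPM in KRT-positive replicate 3 of HCT116 and 0 in its other KRT-positive libraries, and KRT20 counts therefore do not separate the HCT116 fractions, whereas SW480 KRT-positive libraries held 44.4 to 75.1 CPM. Epithelial markers were all detected in Caco2, VIL1 was at 0 in every HCT116 library, and leukocyte markers summed to at most 52.9 CPM in any library. Caco2 KRT20-negative replicate 3 held 622 CPM of fibroblast markers against 34.4 to 58.9 in the other 11 Caco2 libraries. Reads of GAPDH, BNIP3 and PGAM1 may be shared with their 62, 39 and 13 named pseudogenes, and those of TPI1, SLC16A3, BNIP3L, ANKRD37 and P4HA2 with an overlapping gene on the other strand, since how the counting treated either is not stated. As these are bulk samples, fewer cells of a type and less RNA per cell cannot be told apart.

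In Caco2 given differentiation medium, every member that was called was higher than under vehicle, with calls among enzymes, flux genes and hypoxia targets. Of the 31 members tested, 15 were called higher than under vehicle and 0 lower, where 10.4% of all 13968 tested genes were called higher and 10.5% lower. The calls covered 6 of 17 enzymes (median log2 fold change over the 17 of 0.18), 3 of 4 flux genes (0.69) and 6 of 10 tested hypoxia targets (0.48), against a median of -0.00 over all genes, and 7 of the 31 had a fitted change below 0. At an unadjusted p under 0.05, 19 members passed, and DESeq2 called 16. CA9, a cell surface carbonic anhydrase, and EGLN3, a prolyl hydroxylase that marks HIF alpha subunits for decay, had too few counts in Caco2 to be tested: CA9 held 0 to 0.354 CPM and EGLN3 0 to 1.57 CPM over the 12 libraries.

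Among the enzymes, HK1, a hexokinase that starts the pathway, stood at 0.982, 1.48 and 0.46 CPM under vehicle and 5.78, 3.99 and 4.51 CPM in differentiation medium. The groups did not overlap, and the means differed 4.89-fold (log2 2.26, SE 0.44, edgeR adjusted p = 0.000679). These levels are low, with 8, 11 and 3 raw counts of HK1 under vehicle. Its relative HK2, at 33.7 and 40.8 CPM, was not called. PFKP, the platelet form of phosphofructokinase, rose 1.57-fold from 41.5, 48.4 and 45.6 CPM to 67.8, 75.7 and 69 CPM (adjusted p = 4.52e-05). PGK1, which makes the first ATP of the pathway, rose 1.33-fold (adjusted p = 0.000317), as did the muscle phosphofructokinase PFKM (1.33-fold, adjusted p = 0.017). ALDOA (aldolase, 1.18-fold, adjusted p = 0.0397) and PGAM1 (phosphoglycerate mutase, 1.17-fold, adjusted p = 0.0467) passed narrowly, and PGAM1 lost its call under 11 of 18 alternative settings. ENO1 (1.13-fold, adjusted p = 0.0537) and ENO2 (1.84-fold, adjusted p = 0.0508) lay just outside the threshold, and without KRT20-negative replicate 3 in the fit both were called higher (adjusted p = 0.0218 and 0.0356), with TPI1 (0.0249) higher and GAPDH lower (0.0389). With the replicate number as a block, ENO1 was also called higher (edgeR adjusted p = 0.0193).

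The largest shift of a flux gene was that of SLC16A3, the lactate exporter MCT4. It counted 6.75, 5.92 and 7.98 CPM under vehicle and 30.5, 33 and 27.6 CPM in differentiation medium, a 4.41-fold rise (log2 2.14, SE 0.18, edgeR adjusted p = 4.21e-09). PDK1, the kinase that keeps pyruvate out of the mitochondrial acetyl-CoA supply, rose 1.94-fold from 10.5 (SD 3.03) to 20.3 (3.14) CPM (adjusted p = 0.000709). PFKFB3, which makes the activator of phosphofructokinase, rose 1.35-fold from 44.5 (1.13) to 60 (2.14) CPM (adjusted p = 0.00164). Its relative PFKFB4 had 2.88 and 3.18 CPM and was called in no comparison within any line.

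Outside metabolism, NDRG1, a gene induced by hypoxia and by differentiation, had the smallest p. It stood at 65.8, 76.4 and 65.4 CPM under vehicle and 216, 196 and 218 CPM in differentiation medium (3.03-fold, log2 1.60, SE 0.08, edgeR adjusted p = 9.1e-13). VEGFA, the vessel growth factor, rose 1.58-fold (adjusted p = 0.000165), and the collagen prolyl hydroxylase subunits P4HA1 (1.68-fold, adjusted p = 2.74e-06) and P4HA2 (1.39-fold, adjusted p = 0.0027) rose with it. CA12, a carbonic anhydrase of the cell surface, rose 2.02-fold from 3.93, 2.29 and 3.22 CPM to 5.19, 8.76 and 5.16 CPM (adjusted p = 0.00749). The mitophagy receptor BNIP3L rose 1.39-fold (adjusted p = 0.0251), whereas its paralog BNIP3 had 30.1 and 27.4 CPM (adjusted p = 0.443). ADM, the vasodilator peptide adrenomedullin, ANKRD37 and the histone demethylase KDM3A were not called, with fold changes of 0.847, 0.927 and 0.992.

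**Figure D1:**
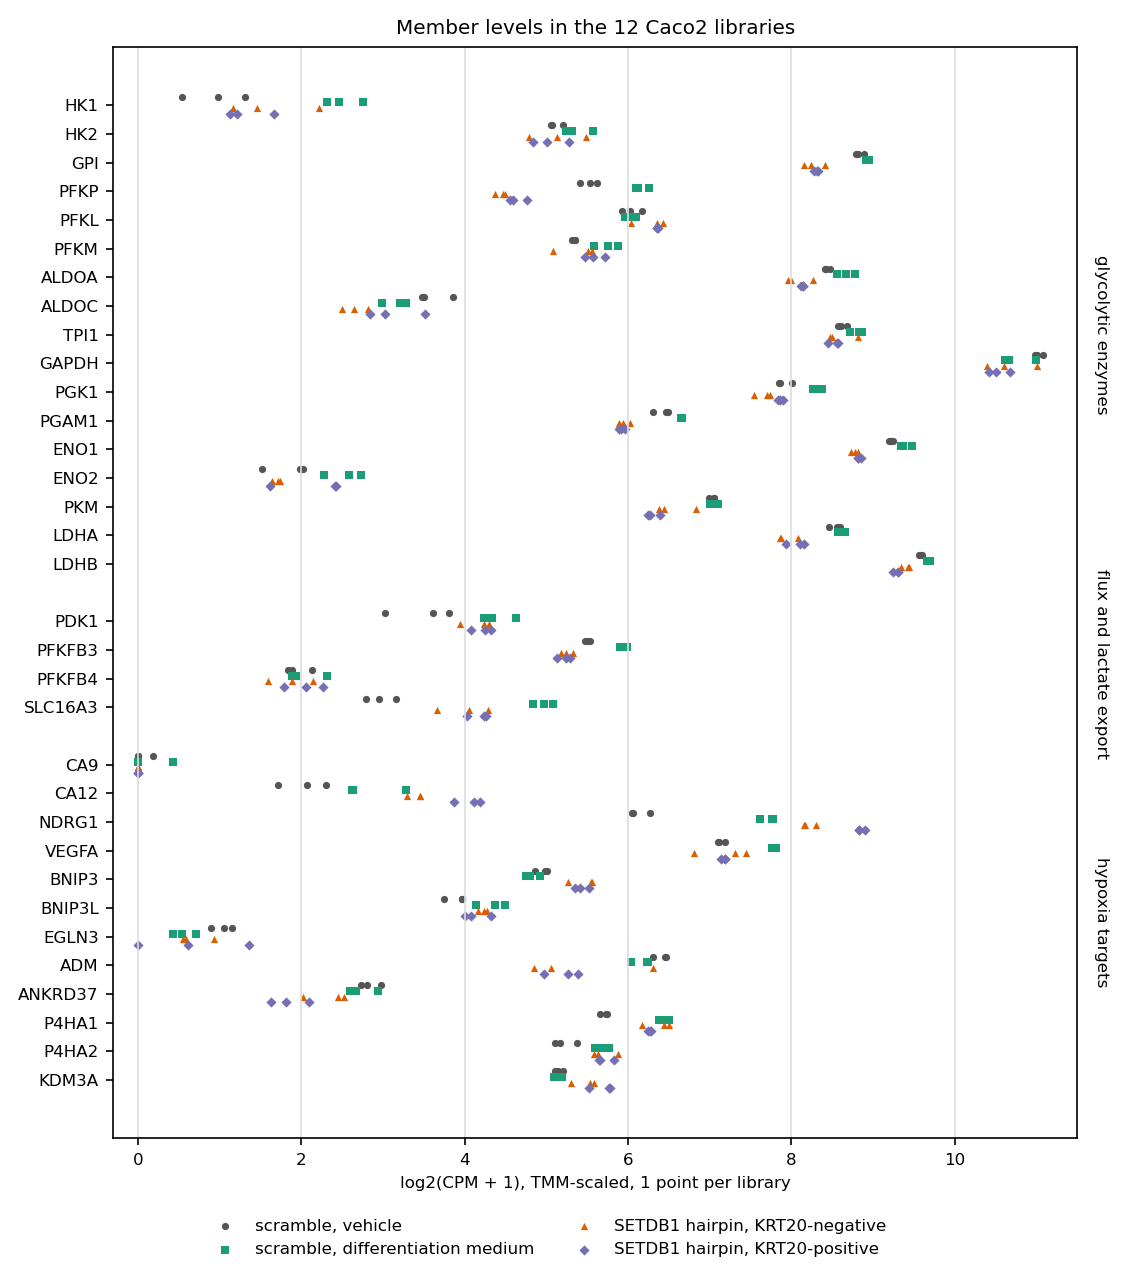
Levels of the 33 members in the 12 Caco2 libraries, as log2(CPM + 1) on the horizontal axis, with 1 point per library and a colour and shape for each of the 4 groups. NDRG1 climbs from 65.4 to 76.4 CPM under vehicle to 452 to 478 CPM in the KRT20-positive fraction, while PFKP is highest in differentiation medium (67.8 to 75.7 CPM) and lowest in the KRT20-negative fraction (19.8 to 21.6 CPM).

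In SETDB1-hairpin Caco2 cells the listed members split by role: against vehicle, most called enzymes were lower and most called hypoxia targets higher. In the KRT20-negative fraction 0 enzymes were called higher and 10 of 17 lower (median log2 -0.33), and 6 of 10 targets were higher and 0 lower (median 0.42). At an unadjusted p under 0.05, 25 of the 31 members passed, and DESeq2 called 21. In the KRT20-positive fraction 1 enzyme was higher and 9 lower (median -0.30), and 6 targets were higher and 2 lower (median 0.50). Over all tested genes, 18.6% were called higher and 17.6% lower in the first comparison, and 19.3% and 18.4% in the second, with a median of 0.01 in each. Both comparisons, and that of differentiation medium, use the same vehicle libraries, so their calls are not independent of each other. Of the 31 tested members, 8 were called higher and 11 lower in the KRT20-negative fraction, and 9 and 12 in the KRT20-positive fraction. Further lists, described below, did not show this split. Medians of 29 other hypoxia targets were 0.12 and 0.06, with 9 called higher and 5 lower, then 8 and 6. Medians of 14 other glycolysis and gluconeogenesis enzymes were 0.15 and 0.09, with 3 higher and 3 lower, then 4 and 2.

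The 8 enzymes called lower in both fractions span the pathway from GPI to the lactate dehydrogenases: GPI, PFKP, ALDOA, PGAM1, ENO1, PKM, LDHA and LDHB. Of all tested genes, 13.8% were called lower in both. PFKP counted 19.8, 21.6 and 21.1 CPM in the KRT20-negative and 22.5, 26.1 and 23.2 CPM in the KRT20-positive fraction, every library below the lowest vehicle library of 41.5 CPM. Its means were 2.17-fold and 1.89-fold lower than under vehicle (log2 -1.12, SE 0.11, edgeR adjusted p = 1.74e-08, and -0.91, SE 0.11, adjusted p = 3.39e-07). LDHA, which makes lactate, averaged 372 CPM (SD 17) under vehicle and 244 (21) and 267 (21.4) in the fractions, 1.52-fold and 1.39-fold lower (adjusted p = 1.45e-06 and 3.05e-05). ENO1, the main enolase, averaged 597 CPM (8.15), then 437 (12.2) and 454 (7.24), which is 1.36-fold and 1.32-fold lower (adjusted p = 6.88e-06 and 3e-05). GPI, the isomerase after hexokinase, was 1.47-fold and 1.43-fold lower, and PGAM1 1.39-fold and 1.42-fold lower.

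PKM, the pyruvate kinase, was 1.39-fold and 1.67-fold lower, ALDOA 1.28-fold and 1.24-fold lower, and LDHB, the dehydrogenase form that favours pyruvate, 1.13-fold and 1.23-fold lower. These are small shifts on high levels, and for each of the 8 enzymes no fraction library reached the lowest vehicle library. LDHB in the KRT20-negative fraction had an adjusted p of 0.0313 and lost its call under 5 of 18 settings. ALDOC, the brain form of aldolase, was called lower in the KRT20-negative fraction (10.3, 10.2 and 13.5 CPM under vehicle, 4.68, 5.27 and 6.08 CPM there, adjusted p = 0.000378), with 6.17, 7.16 and 10.4 CPM in the KRT20-positive fraction, where 1 library overlapped vehicle (adjusted p = 0.058). PGK1 was 1.19-fold lower in the KRT20-negative fraction (adjusted p = 0.0119), and GAPDH 1.4-fold lower in the KRT20-positive fraction (0.0211). PFKL, the liver phosphofructokinase, was the enzyme called higher, 1.25-fold in the KRT20-positive fraction (adjusted p = 0.0143). HK1 stood at 1.25, 1.76 and 3.65 CPM and 2.19, 1.33 and 1.18 CPM in the fractions (adjusted p = 0.0547 and 0.333). ENO2, the neuronal enolase, stood at 2.95, 1.88 and 3.07 CPM under vehicle, 5.66, 3.84 and 5.03 in differentiation medium, and 2.28, 2.34 and 2.13, then 2.06, 4.38 and 4.32 CPM in the fractions, and was called against vehicle in none of them. HK2, PFKM and TPI1 were not called against vehicle in either fraction. With the replicate number as a block, PFKL was also called higher in the KRT20-negative fraction (edgeR adjusted p = 0.0302 against 0.0578 without the block) and ALDOC lower in the KRT20-positive fraction (0.0279), while GAPDH was no longer called there (0.0704).

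Of the flux genes, SLC16A3 and PDK1 were called higher and PFKFB3 lower in each fraction, and PFKFB4 was not called. SLC16A3 rose to 11.7, 15.6 and 18.6 CPM in the KRT20-negative and 18.2, 15.4 and 17.9 CPM in the KRT20-positive fraction, 2.23-fold and 2.5-fold above vehicle (edgeR adjusted p = 2.21e-05 and 3.64e-06). PDK1 rose 1.62-fold and 1.69-fold (adjusted p = 0.00526 and 0.00279). PFKFB3 was 1.2-fold and 1.22-fold lower (adjusted p = 0.0344 and 0.0205), and lost the first of these calls without KRT20-negative replicate 3 (0.0735).

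Among the hypoxia targets, NDRG1 rose to 284, 286 and 315 CPM in the KRT20-negative and to 452, 454 and 478 CPM in the KRT20-positive fraction, 4.26-fold and 6.67-fold over vehicle (log2 2.09 and 2.74, SE 0.08 each, edgeR adjusted p = 1.23e-15 and 6.9e-18). CA12 rose to 10, 8.79 and 10 CPM and to 13.6, 17.2 and 16.4 CPM, 3.06-fold and 5-fold (adjusted p = 1.4e-05 and 3.78e-08). For both genes the 4 groups lay in the order vehicle, differentiation medium, KRT20-negative, KRT20-positive, and no neighbouring groups overlapped. P4HA1 rose 1.6-fold and 1.48-fold, P4HA2 1.41-fold and 1.42-fold, BNIP3 1.43-fold and 1.4-fold, and KDM3A 1.26-fold and 1.47-fold, all called in both fractions. VEGFA and BNIP3L, called higher in differentiation medium, were not called against vehicle in either fraction (VEGFA 147 CPM, SD 32.5, and 143, SD 2.66, against 139, SD 4.61).

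ADM and ANKRD37 went the other way in the KRT20-positive fraction. ADM stood at 86.8, 78.1 and 87.3 CPM under vehicle, 74.1, 64.7 and 74.9 in differentiation medium, 32.2, 27.9 and 78.5 in the KRT20-negative and 37.4, 30.4 and 40.9 in the KRT20-positive fraction. It was 2.32-fold lower in the KRT20-positive fraction (log2 -1.21, SE 0.36, edgeR adjusted p = 0.0264) and was not called in the KRT20-negative fraction (-0.85, SE 0.34, 0.0872), where replicate 3, the library with 622 CPM of fibroblast markers, lay at the vehicle level. Without that library ADM was called lower in the KRT20-negative fraction as well (log2 -1.49, adjusted p = 1.78e-12), as it was with the replicate number as a block (-0.94, 0.043). ANKRD37, an ankyrin repeat protein, stood at 6.88, 5.65 and 5.99 CPM under vehicle, 5.07, 5.38 and 6.71 in differentiation medium, 3.08, 4.45 and 4.76 in the KRT20-negative and 3.29, 2.52 and 2.1 in the KRT20-positive fraction. It was 2.34-fold lower in the last of these (adjusted p = 0.000916).

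Leaving out KRT20-negative replicate 3 changed 5 of the KRT20-negative calls: ADM, ANKRD37 (log2 -0.72, edgeR adjusted p = 0.044) and GAPDH (-0.53, 0.000425) became lower, VEGFA higher (0.24, 0.0114), and PFKFB3 was no longer called. By role this left 0 enzymes higher and 11 lower (median -0.45), 2 flux genes higher and 0 lower, and 7 targets higher and 2 lower. That library also differed from its group in how expression followed transcript GC content (rank correlation 0.2204 against -0.1294 and -0.0407 in replicates 1 and 2). What its fibroblast markers or this difference contribute to the member levels was not tested.

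Between the fractions themselves, 2 of 31 members were called higher in KRT20-positive cells and 0 lower, where 2.3% of all genes were higher and 1.78% lower. NDRG1 was 1.56-fold higher (log2 0.65, SE 0.08, edgeR adjusted p = 4.92e-06) and kept its call whichever library was left out. CA12 was 1.64-fold higher (0.71, SE 0.20, adjusted p = 0.047) and lost its call without differentiation medium replicate 1 or 3, vehicle replicate 3, KRT20-negative replicate 1 or 2, or any 1 of the KRT20-positive libraries, with an adjusted p of up to 0.179. At an unadjusted p under 0.05, 7 members passed.

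Set against scramble cells in differentiation medium, the hairpin fractions held less enzyme RNA. In the KRT20-negative fraction 5 members were called higher and 16 lower, with 19.6% and 18.4% of all genes called. In the KRT20-positive fraction 5 were higher and 15 lower, with 18% and 16.6% of all genes. Enzymes accounted for 13 and 11 of the lower calls (medians -0.59 and -0.45), and PFKP had the smallest p among them, 3.4-fold and 2.96-fold lower (edgeR adjusted p = 4.2e-12 and 3.84e-11). SLC16A3, although above vehicle, was 1.98-fold and 1.77-fold below differentiation medium (adjusted p = 2.85e-05 and 0.00027), and VEGFA 1.5-fold and 1.54-fold below it. NDRG1 was 1.4-fold and 2.2-fold above (adjusted p = 2.23e-05 and 4.46e-11), and BNIP3, CA12 and KDM3A were also called higher in both fractions. With the replicate block, TPI1 was also called lower in the KRT20-negative fraction (adjusted p = 0.0185), and HK2 (0.0202) and ADM (0.0423) in the KRT20-positive fraction. Without KRT20-negative replicate 3, CA12 (edgeR adjusted p = 0.0536), PFKL (0.159) and PFKM (0.117) were no longer called in the KRT20-negative fraction. ADM (log2 -1.25, 1.35e-10), GAPDH (0.0391) and TPI1 (0.000298) then became lower there, and ADM, GAPDH and HK2 in the KRT20-positive fraction.

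**Figure D2:**
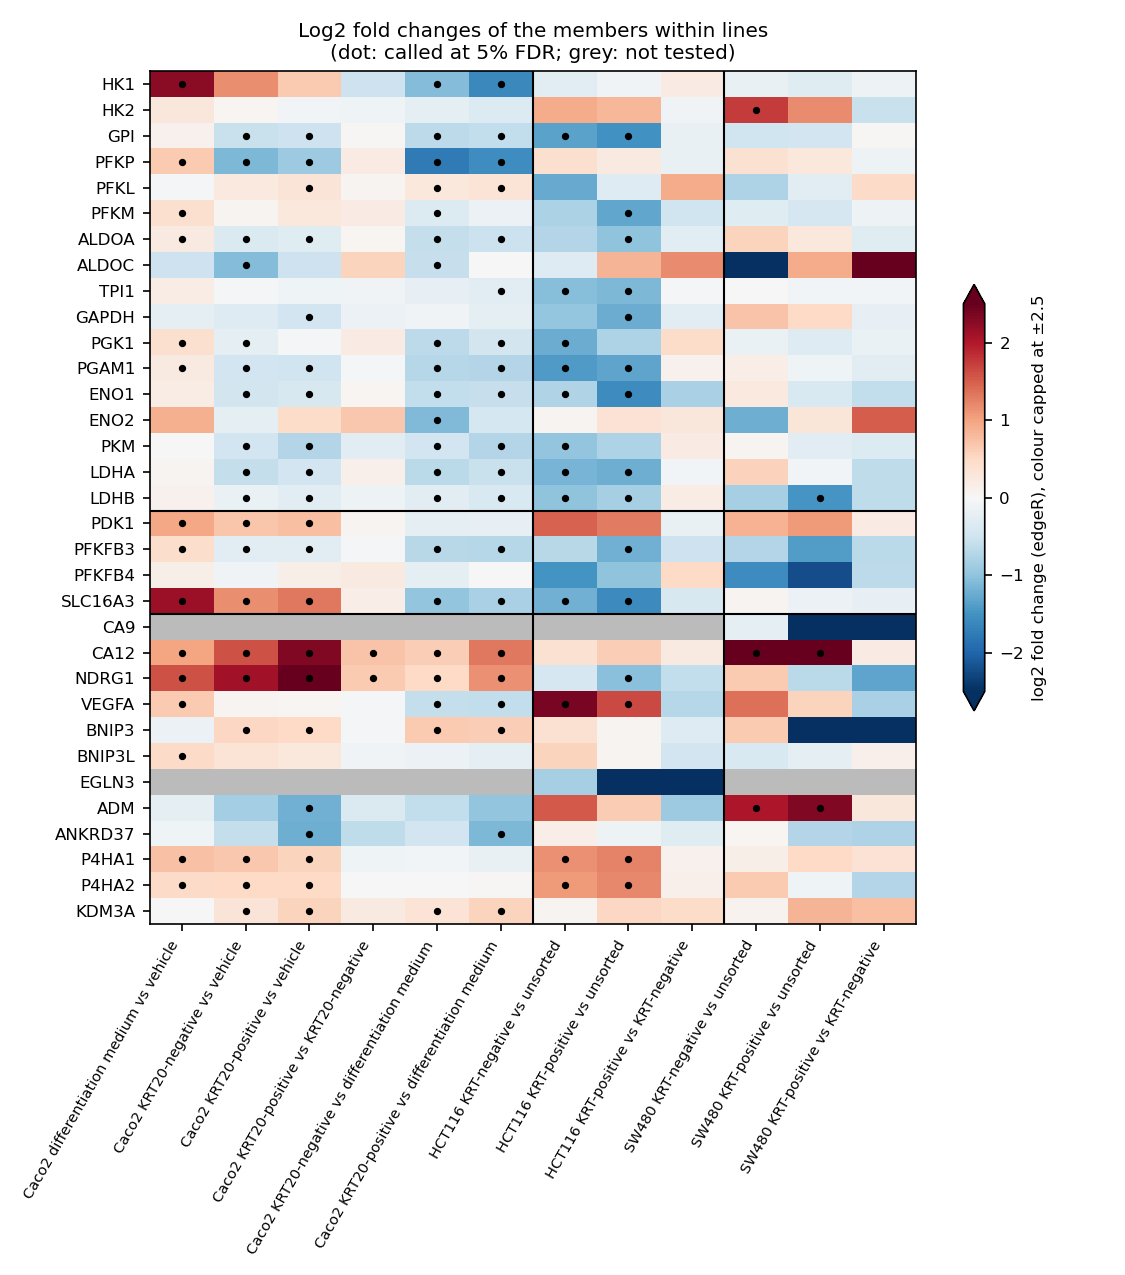
Fitted log2 fold changes of the members (rows, by role) in the 12 comparisons within lines (columns), red for higher and blue for lower in the group named before vs, with a dot for a call at 5% FDR and grey for not tested. Enzyme rows are mostly blue for the hairpin fractions of Caco2 and HCT116 against vehicle or unsorted cells (medians -0.33, -0.30, -0.97 and -0.83) and mixed for SW480 (medians -0.00 and -0.11).

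Averaged by role on the log2(CPM + 1) scale, the enzymes stood at 6.71 (SD 0.02) under vehicle, 6.96 (0.02) in differentiation medium, and 6.42 (0.09) and 6.47 (0.01) in the KRT20-negative and KRT20-positive fractions. The 12 hypoxia targets stood at 4.22 (0.01), 4.54 (0.03), 4.53 (0.02) and 4.59 (0.03). Target minus enzyme means were -2.49 (0.02), -2.43 (0.05), -1.88 (0.07) and -1.88 (0.03). That gap was thus about as wide in differentiation medium as under vehicle and narrower in both hairpin fractions, with no overlap of libraries between the fractions and vehicle. In HCT116 the gap was -3.24 (0.08) in unsorted, -2.12 (0.33) in KRT-negative and -2.48 (0.27) in KRT-positive cells, again without overlap of the fractions with unsorted cells, and in SW480 it was -3.20 (0.40), -2.64 (0.26) and -2.98 (0.05), with overlap. These means carry no test, because the members were listed with earlier results known.

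**Figure D3:**
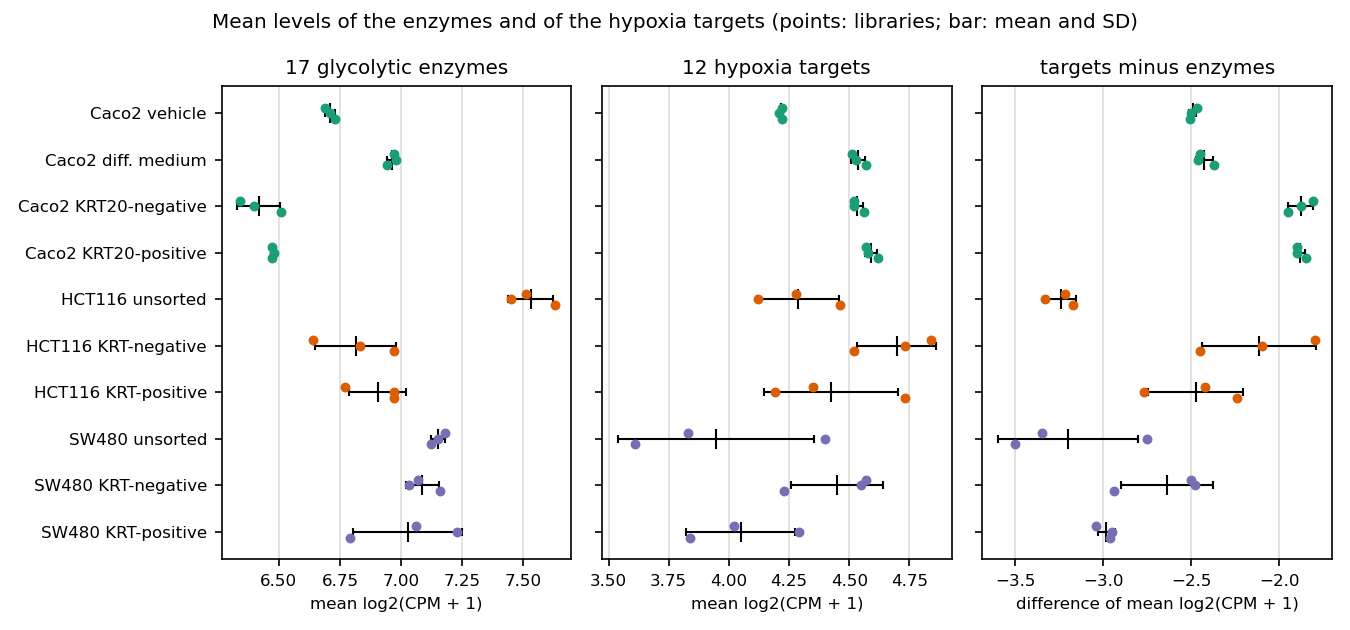
Mean log2(CPM + 1) of the 17 enzymes and of the 12 hypoxia targets in each library, and their difference, by group, with points for libraries and bars for the mean and SD of 3. HCT116 enzymes fall from a group mean of 7.53 in unsorted cells to 6.81 and 6.90 in the fractions, while SW480 enzymes stay between 7.03 and 7.15.

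In HCT116 the SETDB1-hairpin fractions again had enzymes called lower and collagen hydroxylase transcripts higher than the control, here unsorted cells. VEGFA was also called higher, whereas in the Caco2 fractions it was not called against vehicle with all libraries in the fit. Against unsorted cells, 3 members were called higher and 9 lower in KRT-negative cells, and 3 and 12 in KRT-positive cells, of 32 tested; CA9, with 0 to 3.58 CPM, was not tested. Of all 13279 genes, 2.82% were called higher and 2.44% lower in the first comparison and 4.26% and 5.02% in the second. By role, 0 enzymes were higher and 8 lower in KRT-negative cells (median -0.97), and 0 and 9 in KRT-positive cells (median -0.83), against medians of 0.04 and 0.07 over all genes. Of 11 tested hypoxia targets, 3 were higher and 0 lower (median 0.39), then 3 higher and 1 lower (median 0.51). The summed enzyme level was 5558 CPM (SD 430.6) in unsorted cells, 3097 (412.7) in KRT-negative and 2763 (193.6) in KRT-positive cells.

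ENO1 stood at 1136, 1404 and 1203 CPM in unsorted, 672, 791 and 747 in KRT-negative and 433, 420 and 394 in KRT-positive cells, so that the 3 groups did not overlap. It was 1.69-fold lower in KRT-negative (log2 -0.76, SE 0.18, edgeR adjusted p = 0.0237) and 3-fold lower in KRT-positive cells (-1.58, SE 0.19, 8.54e-05). GPI stood at 246, 163 and 292 CPM in unsorted, 78.1, 82.4 and 117 in KRT-negative and 77, 69.7 and 97.9 in KRT-positive cells. Both fractions lay wholly below unsorted cells, 2.53-fold and 2.86-fold (adjusted p = 0.0133 and 0.00364). TPI1, the triose phosphate isomerase, stood at 394, 437 and 465 CPM, then 176, 249 and 194, then 199, 198 and 200 CPM. It was 2.09-fold and 2.17-fold lower (adjusted p = 0.00799 and 0.00364), with no overlap. PGAM1 stood at 169, 185 and 159 CPM, then 67.6, 66.5 and 58.1, then 40.4, 78.4 and 86.4 CPM, 2.67-fold and 2.5-fold lower (adjusted p = 0.0135 and 0.0128).

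LDHA stood at 569, 650 and 493 CPM in unsorted, 273, 253 and 241 in KRT-negative and 138, 338 and 261 in KRT-positive cells. It was 2.23-fold and 2.32-fold lower (edgeR adjusted p = 0.0208 and 0.01). LDHB stood at 574, 576 and 481 CPM, then 264, 327 and 220, then 288, 403 and 229 CPM, 2.01-fold and 1.77-fold lower (adjusted p = 0.0237 and 0.0434). For both dehydrogenases the fractions lay below all unsorted libraries and overlapped each other. PGK1 stood at 291, 390 and 233 CPM, then 126, 135 and 126, then 173, 177 and 180 CPM, and was called in KRT-negative cells (2.36-fold lower, adjusted p = 0.00568) but not in KRT-positive cells (1.72-fold, 0.0505). PKM, with group means of 257 (SD 35.8), 130 (21.7) and 150 (17.6) CPM, was likewise called in KRT-negative cells (adjusted p = 0.0264) and not in KRT-positive cells (0.057).

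GAPDH, which oxidises glyceraldehyde 3-phosphate, stood at 675, 770 and 1355 CPM in unsorted, 282, 622 and 521 in KRT-negative and 370, 393 and 414 in KRT-positive cells, and was called in the latter (2.38-fold lower, edgeR adjusted p = 0.0127; 0.069 in KRT-negative cells). ALDOA stood at 286, 374 and 335 CPM, then 180, 243 and 172, then 109, 202 and 183 CPM (KRT-positive 2.02-fold lower, 0.0238; KRT-negative 0.133). PFKM stood at 67.1, 75.7 and 89.6 CPM, then 40.6, 51.5 and 41.1, then 23.4, 43.9 and 27.4 CPM (KRT-positive 2.45-fold lower, 0.0375; KRT-negative 0.263). All fraction libraries of these 3 enzymes lay below all unsorted libraries. A call in 1 fraction and not in the other is no test between them. The remaining enzymes, HK1, HK2, PFKP, PFKL, ALDOC and ENO2, were not called in either fraction; HK2 had higher values in every fraction library (96.3 to 133 CPM) than in unsorted cells (45.4 to 68.5 CPM), with adjusted p of 0.089 and 0.093.

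SLC16A3 was lower in HCT116 fractions, unlike in Caco2: 184, 193 and 267 CPM in unsorted, 67.6, 129 and 84.9 in KRT-negative and 74.1, 72.7 and 67.1 in KRT-positive cells. The means were 2.29-fold and 3.01-fold lower (edgeR adjusted p = 0.0255 and 0.00264). PFKFB3 stood at 105, 120 and 115 CPM, then 59.8, 51.6 and 99.2, then 46.2, 63.4 and 37.3 CPM, and was called lower in KRT-positive cells (2.31-fold, adjusted p = 0.0351) and not in KRT-negative cells (0.307). PDK1 had 10.8 (SD 3), 30.1 (2.29) and 26.3 (7.84) CPM in unsorted, KRT-negative and KRT-positive cells, without overlap of the fractions with unsorted cells, but was not called (adjusted p = 0.151 and 0.169).

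VEGFA stood at 25, 25.7 and 48 CPM in unsorted, 164, 197 and 151 in KRT-negative and 27.9, 101 and 184 in KRT-positive HCT116 cells. It rose 5.18-fold in KRT-negative cells (log2 2.38, SE 0.50, edgeR adjusted p = 0.0101) with no overlap, and 3.16-fold in KRT-positive cells (1.66, SE 0.49, 0.0431), where replicate 1 lay within the unsorted range. P4HA1 stood at 42.3, 50.4 and 61.2 CPM, then 105, 118 and 115, then 83.2, 119 and 162 CPM, 2.2-fold and 2.36-fold higher (adjusted p = 0.0431 and 0.0181). P4HA2 stood at 47.8, 82.6 and 109 CPM, then 152, 161 and 187, then 189, 199 and 161 CPM, 2.09-fold and 2.29-fold higher (adjusted p = 0.0489 and 0.0175). For both hydroxylase subunits all fraction libraries were above all unsorted ones. P4HA2 in KRT-negative cells also lost its call under RLE size factors, the scaling of DESeq2.

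NDRG1 stood at 340, 320 and 464 CPM in unsorted, 239, 299 and 300 in KRT-negative and 220, 191 and 136 in KRT-positive HCT116 cells. It was 2.06-fold lower in KRT-positive cells (edgeR adjusted p = 0.013), the opposite sign to Caco2, and was not called in KRT-negative cells (0.41). ADM had 17.5 (SD 6.06), 50.4 (7.74) and 27 (3.6) CPM and was not called (adjusted p = 0.0656 and 0.473). EGLN3 was at 0 in all KRT-positive libraries, at least 32.8-fold below unsorted cells by a floor of 3 counts over the group, yet unsorted libraries ranged from 0.144 to 5.12 CPM and it was not called (adjusted p = 0.158). BNIP3, BNIP3L, CA12, ANKRD37 and KDM3A were not called in either fraction.

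The HCT116 calls lean on few libraries. Of the 12 in KRT-negative cells, PGK1 and TPI1 held whichever library was left out; the count fell to 6, 7 or 4 without KRT-negative replicate 1, 2 or 3, and to 6 or 4 without unsorted replicate 1 or 2. Of the 15 in KRT-positive cells, ENO1, GPI, LDHA, SLC16A3 and TPI1 held; the count fell to 8 without KRT-positive replicate 1 or 3 and to 9 without unsorted replicate 1 or 2. VEGFA reached an adjusted p of 0.276 in KRT-positive cells in this way, P4HA1 0.156 and P4HA2 0.201 in KRT-negative cells. Scaling by library totals in place of TMM gave 4 members higher and 8 lower in KRT-positive cells, moved the median of all genes from 0.07 to 0.29 and raised the share of higher calls over all genes from 45.9% to 63.8%.

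HCT116 libraries were also put into 2 classes by how expression followed transcript GC content. The class is the sign of a rank correlation between GC content and a library's deviation from the mean of its line. Such a rule makes 2 classes in any data, and the labels give none. Correlations ran from -0.2217 to -0.0495 in the negative class and from 0.2314 to 0.3186 in the positive class. KRT-negative replicate 1, all KRT-positive and unsorted replicates 1 and 2 formed the class richer in AT-rich transcripts. Within it, 15 of 17 enzymes were lower in KRT-negative than in unsorted cells (1 library against 2, median -1.05) and 12 of 17 in KRT-positive cells (3 against 2, median -0.93). Within the other class, 14 of 17 were lower in KRT-negative cells (2 libraries against 1, median -0.84), and it held no KRT-positive library. The targets had medians of 1.17, 0.35 and 0.05 in these 3 comparisons. All genes were not counted within a class, so these counts and medians have no background to be read against. With a term for the class in the edgeR fit, GAPDH was also called lower in KRT-negative cells (adjusted p = 5.52e-05) and PGK1 and PKM in KRT-positive cells (0.0134 and 0.0472), while PFKM was no longer called there (0.0529).

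Between the HCT116 fractions 0 of 32 members were called by edgeR, where 0.166% of all genes were higher and 0.384% lower in KRT-positive cells. At an unadjusted p under 0.05, 4 members passed, and DESeq2 called 1, ENO1, which was 1.77-fold lower in KRT-positive cells (edgeR adjusted p = 0.059). Without unsorted replicate 3 in the fit, edgeR also called 1 member.

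In SW480 few members were called, and the enzyme medians lay close to those of all genes. Simulated 4-fold changes were mostly missed in this line (13% recovered), so a missing call does not show a lack of change. In KRT-negative cells 3 of 32 tested members were called higher than in unsorted cells and 0 lower, and in KRT-positive cells 2 were higher and 1 lower, where 1.36% and 0.762%, then 1.9% and 1.57%, of all 13252 genes were called. Enzyme medians were -0.00 and -0.11, and target medians 0.65 and -0.10, against 0.01 and 0.03 over all genes.

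CA12 was at 0 counts in all 3 unsorted SW480 libraries, and stood at 22, 15.6 and 16.2 CPM in KRT-negative and 48.3, 10.5 and 3.26 CPM in KRT-positive cells. With a floor of 3 counts over the unsorted group, it was at least 146-fold and at least 169-fold higher (edgeR adjusted p = 0.0167 and 0.0122). ADM stood at 26, 13.4 and 19 CPM in unsorted, 89.9, 59.7 and 87.3 in KRT-negative and 70.9, 117 and 103 in KRT-positive cells. It rose 4.05-fold (log2 2.02, SE 0.38, adjusted p = 0.0129) and 4.97-fold (2.31, SE 0.39, 0.00471), without overlap. HK2, the inducible hexokinase, stood at 33, 40 and 63.2 CPM, then 165, 157 and 136, then 91.9, 131 and 89.4 CPM. It was called in KRT-negative cells (3.36-fold higher, log2 1.75, SE 0.32, adjusted p = 0.0112) and not in KRT-positive cells (2.29-fold, 0.0592). LDHB stood at 412, 427 and 457 CPM, then 190, 286 and 252, then 155, 203 and 110 CPM. It was 2.77-fold lower in KRT-positive cells (-1.47, SE 0.26, adjusted p = 0.00617) and not called in KRT-negative cells (1.78-fold, 0.129), although no fraction library reached the unsorted ones.

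The 3 calls in KRT-positive SW480 cells held whichever library was left out. In KRT-negative cells all 3 were lost without replicate 1, the library whose SETDB1 level went against its label (ADM log2 1.92, edgeR adjusted p = 0.0638; CA12 0.0588; HK2 1.70, 0.0514), and 1 call was left after dropping any of 3 other libraries, KRT-negative replicate 3 and unsorted replicates 1 and 3. EGLN3 was at 0 in all 6 fraction libraries, with 3.44, 17.8 and 0 CPM in unsorted cells, and had too few counts to be tested. The other members, among them CA9 at 0 to 5.44 CPM, were not called; PFKFB3 ranged from 0.111 to 30.4 CPM and BNIP3 from 0 to 11 CPM over the 9 libraries. Replicate 2 of every SW480 group belonged to the class richer in AT-rich transcripts, and a term for that class gave 5 calls in place of 3 in each fraction: GAPDH was added as higher in both (adjusted p = 0.00796 and 0.0382), LDHB as lower in KRT-negative cells (0.031) and HK2 as higher in KRT-positive cells (0.0354).

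Between the SW480 fractions edgeR called 0 of 32 members, where 0.226% of all genes were higher and 0.219% lower in KRT-positive cells, 5 passed at an unadjusted p under 0.05, and DESeq2 called 2. These were ENO1, 1.53-fold lower in KRT-positive cells (edgeR adjusted p = 0.154), and NDRG1, at 320, 223 and 234 CPM in KRT-negative, 101, 72.8 and 138 in KRT-positive and 164, 164 and 169 in unsorted cells. NDRG1 was thus 2.49-fold lower in KRT-positive than in KRT-negative cells (log2 -1.32, SE 0.27, adjusted p = 0.0537), and the groups did not overlap. With the term for GC class both were called by edgeR (0.0204 and 0.0115), and without KRT-positive replicate 3 edgeR called 1 member.

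**Figure D4:**
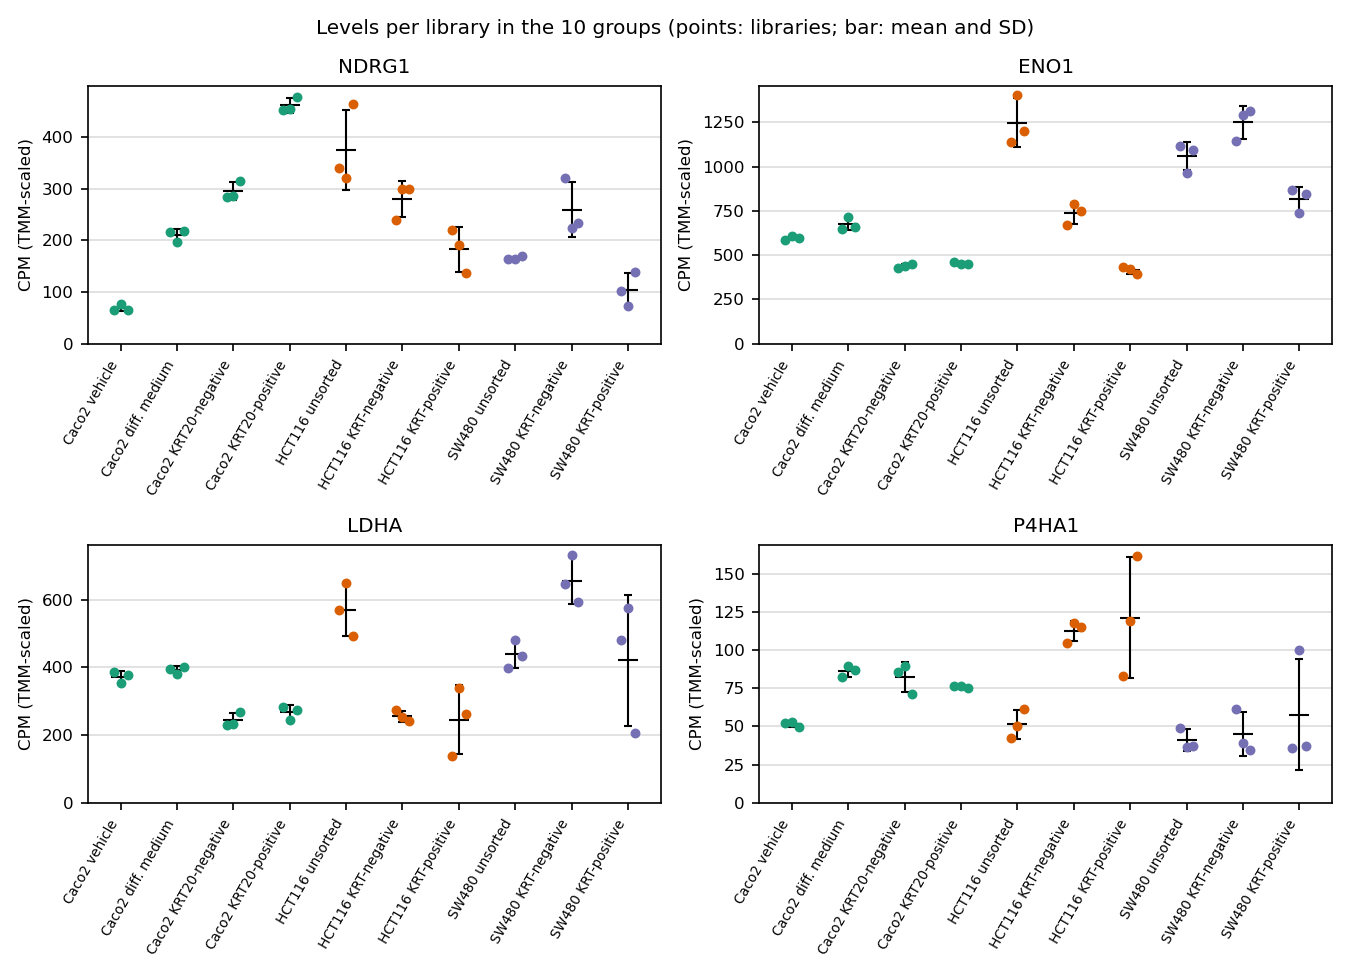
CPM of NDRG1, ENO1, LDHA and P4HA1 in all 30 libraries by group, with points for libraries and bars for the mean and SD of 3. KRT-positive libraries of NDRG1 lie above KRT-negative ones in Caco2 (452 to 478 against 284 to 315 CPM) and below them in HCT116 (136 to 220 against 239 to 300) and SW480 (72.8 to 138 against 223 to 320).

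Across lines, 5 enzymes (GPI, PGAM1, ENO1, LDHA and LDHB) were called lower and 2 targets (P4HA1 and P4HA2) higher in both fractions of Caco2 and both of HCT116. Of the 12067 genes tested in both lines, 1.07% were called lower and 0.688% higher in all 4 comparisons, of which those of 1 line share their controls. Whether an effect differed between lines was tested as an interaction in a joint edgeR fit of 2 lines. For the step from KRT-negative to KRT-positive cells, NDRG1 and ENO1 differed between Caco2 and HCT116 by 1.28 (SE 0.239) and 0.89 (SE 0.142) in log2 fold change (Caco2 minus HCT116, adjusted p = 0.00877 and 0.00241), where 2.37% of all genes were called. The same genes differed between Caco2 and SW480 by 2.00 (SE 0.26) and 0.70 (SE 0.129) (adjusted p = 0.000449 and 0.00612), where 2.93% of genes were called. All 4 differences held under each of 16 alternatives. The joint fit gives each gene a single spread for both lines, although replicates lay close together in Caco2 and far apart in HCT116 and SW480. These SEs and adjusted p-values may therefore be too small, and no alternative changed that sharing. NDRG1 moved up with the KRT sort in Caco2 and had lower values in KRT-positive cells of both other lines, and ENO1 had 454 against 437 CPM in Caco2.

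Against unsorted cells, the log2 fold change of ENO1 differed between HCT116 and SW480 (HCT116 minus SW480) by -1.02 in KRT-negative (edgeR adjusted p = 0.0226, lost under 7 of 16 alternatives) and -1.19 in KRT-positive cells (0.0088, kept under all 16). LDHA differed by -1.77 in KRT-negative cells (0.0421) and GAPDH by -1.73 in KRT-positive cells (0.0486), both lost under most alternatives (12 and 11 of 16). Of all genes, 1.03% were called for the KRT-negative and 1.08% for the KRT-positive comparison. For the step between fractions, 0.0539% of genes and no member differed between HCT116 and SW480.

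The unsorted or vehicle groups of the lines differed in HK1, SLC16A3 and other members. In a joint fit of Caco2 vehicle, HCT116 unsorted and SW480 unsorted cells, Caco2 had 5 members higher and 12 lower than HCT116 (17.9% and 15.2% of 14035 genes) and 6 higher and 7 lower than SW480 (18.3% and 15.7%). HCT116 had 5 members higher and 0 lower than SW480 (10.6% and 10.8%). HK1 averaged 0.974 CPM (SD 0.51) in Caco2, 125 (21.4) in HCT116 and 180 (23.6) in SW480, 128-fold and 185-fold lower in Caco2 (edgeR adjusted p = 5.29e-06 and 3.42e-06), with HCT116 and SW480 not called apart (0.134). HK2, at 33.7, 60.1 and 45.4 CPM, was not called between Caco2 and either line (edgeR adjusted p = 0.0896 and 0.333). The HK1 values thus do not stand for hexokinase RNA as a whole, which was not tested. SLC16A3 was 31.2-fold and 22.2-fold lower in Caco2 (adjusted p = 6.42e-06 and 8.22e-06), ENO2 9.09-fold and 9.2-fold lower, and NDRG1 5.42-fold and 2.39-fold lower.

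ADM was 4.82-fold and 4.32-fold higher in Caco2, VEGFA 4.24-fold and 4.64-fold, GAPDH 2.23-fold and 2.56-fold, and LDHB 1.41-fold and 1.77-fold, all called. The 5 members higher in HCT116 than in SW480 were CA12, at 0 in all SW480 unsorted libraries, PFKFB3 (4.32-fold, adjusted p = 0.000495), PFKP (2.38-fold), NDRG1 (2.27-fold) and PGAM1 (2.24-fold); without HCT116 unsorted replicate 3 the count was 9. Line, hairpin and library batch cannot be told apart in these comparisons. The folds are ratios of CPM scaled within each line, whereas the tests used a joint scaling (fitted log2 of SLC16A3 -4.87 and -4.46 for Caco2 against HCT116 and SW480). The joint fit also shares a spread per gene between Caco2 and the lines with wider replicates, so adjusted p-values may be too small or too large.

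Beyond the members, 4 further lists of the pathway were read the same way, and none was tested as a set. Over all genes in Caco2, 10.4% were called higher and 10.5% lower in differentiation medium. The shares were 18.6% and 17.6% in the KRT20-negative and 19.3% and 18.4% in the KRT20-positive fraction. In HCT116 they were 2.82% and 2.44% in KRT-negative and 4.26% and 5.02% in KRT-positive cells. Of the oxygen sensors and HIF subunits, 2 of 11 tested were called higher and 2 lower in Caco2 differentiation medium, 1 and 1 in the KRT20-negative and 2 and 1 in the KRT20-positive fraction. HIF1A, named here as the founding HIF subunit although it passed no test, at 51.5 to 58.9 CPM in Caco2 group means, was called in no comparison within a line. EPAS1, the second alpha subunit, rose from 42.9 to 70.6 CPM in differentiation medium (edgeR adjusted p = 2.62e-05) and in KRT-positive HCT116 cells (log2 2.71, adjusted p = 0.00474), the sole call of that list in HCT116; no gene of it was called in SW480.

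Of the other glycolysis and gluconeogenesis enzymes, 2 of 14 tested were higher and 1 lower in Caco2 differentiation medium, 3 and 3 in the KRT20-negative and 4 and 2 in the KRT20-positive fraction. For this list and the next, the shares over all genes were 10.4% and 10.5%, then 18.6% and 17.6%, then 19.3% and 18.4%. PCK1, the entry enzyme of gluconeogenesis, averaged 2.35 CPM under vehicle and 34 and 65.8 CPM in the fractions (log2 3.84 and 4.80), both called. Of the genes for pyruvate and lactate handling, 4 of 19 were higher and 3 lower in differentiation medium, 4 and 7 in the KRT20-negative and 6 and 7 in the KRT20-positive fraction. PDK4, a relative of PDK1, averaged 0.566 CPM under vehicle, 6.3 in differentiation medium, and 10.4 and 24.4 in the fractions (log2 3.41, 4.12 and 5.34, edgeR adjusted p = 1.1e-06, 6.38e-09 and 1.67e-11).

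Of 29 other hypoxia targets tested in Caco2, 10 were higher and 2 lower in differentiation medium, 9 and 5 in the KRT20-negative and 8 and 6 in the KRT20-positive fraction. Their median log2 fold changes were 0.25, 0.12 and 0.06. The shares over all genes were 10.4% and 10.5%, then 18.6% and 17.6%, then 19.3% and 18.4%. SLC2A1, the glucose transporter GLUT1, averaged 136 CPM under vehicle, 351 in differentiation medium and 80.3 and 102 in the fractions, a rise over vehicle and 2 falls below it that were all called (edgeR adjusted p = 5.53e-11, 4.15e-07 and 0.000839). SLC2A3, the transporter GLUT3, fell from 2309 CPM to 1551, 160 and 77.9 CPM, the last a log2 change of -4.89 (adjusted p = 6.97e-22). In HCT116, 5 of 27 were higher and 1 lower in KRT-negative and 4 and 1 in KRT-positive cells. Over all genes the shares were 2.82% and 2.44%, then 4.26% and 5.02%. SLC2A1 averaged 210 CPM in unsorted and 44.7 and 44.1 CPM in the fractions, the 1 lower call of each (adjusted p = 0.000418 and 0.000265). ANGPTL4, a target of HIF and of PPAR, rose from 18.7 to 698 and 127 CPM (adjusted p = 1.06e-06 and 6.48e-05). In SW480, 2 of 27 were higher and 0 lower in KRT-negative and 3 and 3 in KRT-positive cells, and ANGPTL4 and WSB1 were called higher in both. Shares over all genes there were 1.36% and 0.762%, then 1.9% and 1.57%.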

How the data were processed

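RNA of 30 libraries was measured by QuantSeq 3′ tag sequencing. The authors deposited 1 table of raw counts per library, with 25737 lines each. Per the submitters' processing notes, reads went through Bowtie2 and edgeR with hg19 as the genome build; versions, settings and strand use in counting are not given in the sources used here. Values were checked to be whole numbers in all 30 tables, and 1561 lines of 286 repeated symbols were summed to 24462 symbols.

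Counts were tested with the quasi-likelihood F test of edgeR 4.0.16 in R 4.3.3 (low counts removed by filterByExpr, TMM scaling, robust dispersions, Benjamini-Hochberg adjustment over all tested genes, call at 5% FDR), each line on its own with all its groups and without a replicate block. The 3 baseline groups had a joint fit, and 2 lines at a time for differences between lines, with a shared dispersion per gene. That made 12 comparisons within lines and 3 between them. Each SE was obtained from the fold change and its F statistic. Levels in CPM use the TMM factors of each line's own fit and are means with the SD of 3 libraries. Folds are ratios of those means. Log2 fold changes are fitted values, role means use log2(CPM + 1), and fold bounds against 0 counts use 3 counts over the group.

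The script was tested on simulated counts. In KRT20-negative against vehicle Caco2 cells (13384 genes) it recovered 77% of 100 2-fold and 92% of 100 4-fold changes with 11 unchanged genes called, in KRT-positive against unsorted HCT116 cells (12247 genes) 1% and 24% with 2, and in SW480 (12118 genes) 0% and 13% with 2. The changed genes were drawn at random from all tested genes. For such genes, 2-fold and 4-fold changes alike were mostly missed in HCT116 and SW480. A missing call there does not show a lack of change. Recovery at the levels of the members was not assessed separately.

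Alternatives were RLE factors, library totals, no low-count filter, only the groups compared, DESeq2 1.42.0, a replicate block and leaving out each library. Labels give the replicate numbers but no shared culture or day; deviations of same-numbered libraries correlated over 0.1 in every pair for 4 of 6 group pairs of Caco2 (not for KRT20-positive cells with vehicle or differentiation medium, lowest 0.05) and for 0 of 3 in HCT116 and in SW480, so blocked values stand beside Caco2 results whose call they change. The GC class of a library, and the alternatives that use it, were chosen after the data were seen. The class is the sign of a rank correlation, so a library at 0.0003 is classed like one at 0.1766. In Caco2 all vehicle libraries fell in the AT-rich class. Replicates 2 and 3 of differentiation medium (0.1766 and 0.0140) and of KRT20-positive cells (0.0981 and 0.0003) fell in the other. No class term was fitted there. The members and all gene lists were chosen with earlier results of these data known. A member has its value in every library of a line where a called change reached a log2 of 1, and otherwise its mean or range; of each further list at most the 4 called genes with the smallest adjusted p per comparison are named. A result that this rule would name is not reported here. Promoters came from RefSeq on GRCh38.p14.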

Additional observations from a re-analysis of the deposited data

Results flagged for a closer look

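Effects that differed between lines are listed as values. From KRT-negative to KRT-positive cells, the log2 fold change of ENO1 was 0.89 greater in Caco2 than in HCT116 (joint edgeR fit, adjusted p = 0.00241) and 0.70 greater than in SW480 (0.00612). That of NDRG1 was 1.28 greater than in HCT116 (joint edgeR fit, adjusted p = 0.00877) and 2.00 greater than in SW480 (0.000449). These joint fits share a spread per gene between Caco2 and a line whose replicates lay farther apart, so the adjusted p-values may be too small.

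Against unsorted cells, HCT116 minus SW480 was -1.02 for ENO1 (edgeR adjusted p = 0.0226) and -1.77 for LDHA (0.0421) in KRT-negative cells, and -1.19 for ENO1 (0.0088) and -1.73 for GAPDH (0.0486) in KRT-positive cells. For 2 more genes the KRT-negative libraries lay wholly below unsorted cells in HCT116 and wholly above them in SW480: ALDOA, with a difference of -1.33 (edgeR adjusted p = 0.0633), and NDRG1, with -1.09 (0.199), neither past the threshold of the test.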

How the results depend on the processing

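No member reversed its direction after a call under any alternative, and of 246 recomputed counts of called members 209 stayed within 1.5 times. Leaving out each library in turn gave 11 to 19 calls in Caco2 for differentiation medium, 15 to 22 and 18 to 23 for the KRT20-negative and KRT20-positive fractions against vehicle, 1 to 2 between the fractions, and 17 to 21 and 19 to 23 for the fractions against differentiation medium. It gave 4 to 11, 8 to 15 and 0 to 1 in HCT116 (KRT-negative and KRT-positive against unsorted cells, then between fractions), 0 to 3, 3 to 4 and 0 to 1 in SW480, and 13 to 18, 12 to 15 and 5 to 9 at baseline (Caco2 against HCT116, Caco2 against SW480, HCT116 against SW480). With only the 2 groups compared in the fit, HCT116 KRT-negative against unsorted cells had 7 calls in place of 12. Between the HCT116 fractions 1 call appeared with no low-count filter, with only the 2 groups and in DESeq2; between the SW480 fractions 1 appeared with no filter and 2 in DESeq2. DESeq2 called 10 in place of 5 between HCT116 and SW480 at baseline. The cause of these shifts was not tested.

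With a replicate block, SW480 gave 5, 5 and 2 calls (3, 3 and 0 without), as it did with a term for GC class, since replicate 2 is the class. The block gave 13, 14 and 0 in HCT116 and 16, 21, 21, 2, 22 and 22 in Caco2, within 1.5 times of the fits without it; GAPDH in Caco2 KRT20-positive cells (edgeR adjusted p = 0.0704) and PFKFB3 in HCT116 KRT-positive cells (0.0511) were not called with the block. The Caco2 calls it added stand beside the results; in HCT116 it added GAPDH in KRT-negative cells (0.0386). Correlations of same-numbered libraries ran from 0.05 to 0.28 for Caco2, from -0.11 to 0.23 for HCT116 and from 0.04 to 0.30 for SW480, over 0.1 in 16 of 18, 2 of 9 and 4 of 9 cases, so the numbers were taken to pair samples in Caco2 alone. A library correlated best with its own number in 34 of 36, 4 of 18 and 12 of 18 cases. Library totals moved the share of higher calls over all genes from 30.1% to 49.3% between the HCT116 fractions and from 50.8% to 63.5% between the SW480 fractions, with medians of 0.21 and 0.10. With EGLN3 (HCT116) or CA12 (SW480) at its bound in the 4 comparisons within lines where a group held 0 counts of it, the medians of targets and of members were unchanged at 2 decimals; other lists were not recomputed.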
